A study of Tetranychus cinnabarinus with 8 samples.

Results

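The comparison of solvent-treated T. cinnabarinus at 48 h with solvent-treated T. cinnabarinus at 24 h posttreatment rests on 4 of the 8 RNA-Seq libraries of the study, 2 at 48 h and 2 at 24 h. The libraries were chosen by their labels, and no measured value entered the choice. The mites were females of a susceptible strain of the carmine spider mite, kept on cowpea leaves, and the solvent was water with Tween 80 and acetone sprayed without curcumin. All 8 libraries carry the same age label, 2-day old adults, which does not say whether the age is that at spraying or at collection. The other 4 libraries came from mites sprayed with curcumin at 2.64 mg/mL and collected at 48 h or at 24 h, and they serve here for a shared estimate of the spread and as a set of time changes that shares no library with the solvent set. Within each replicate, all mites alive at a time point were pooled, and whole bodies were sequenced. No unsprayed mites were sequenced, so any difference in the age of the females, the time since spraying and the collection itself go together and cannot be told apart. Likewise, in whole-body RNA, fewer cells of a type and less RNA per cell cannot be told apart.

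Spider mite females begin to lay eggs soon after their last moult, and they then turn much of the food taken from leaf cells into yolk. Vitellogenins are the precursors of yolk proteins, which arthropod females release into the body fluid and which growing oocytes take up. Lipocalins, the family of apolipoprotein D, are small secreted proteins that bind lipids and other hydrophobic molecules. The question put to the libraries was which transcripts of adult females differ after 1 more day under solvent.

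The estimated reads on genes came to 8033325 and 8038419 in the 48 h libraries, and to 8496172 and 8452421 in the 24 h libraries. The comparison was limited to gene models above a length limit, since the shortest models were not listed in every library, and the models kept held between 99.98% and 99.99% of the reads of these 4 libraries. Of 15666 such models listed in at least 1 of the 8 libraries, 12193 passed the filter on low counts and were tested. The first library at 48 h stood apart from the others. The median absolute difference in log2(RPKM + 1) between the replicates was 0.22 at 48 h and 0.156 at 24 h, while the second library at 48 h differed by only 0.161 and 0.17 from the first and second libraries at 24 h. RPKM is the number of reads on a gene scaled by the length of its model and by the mapped reads of the library. Across genes, Pearson's r on this scale was 0.973 between the 48 h replicates, 0.981 between the 24 h replicates, and between 0.964 and 0.979 for libraries of different time points, where genes are not independent replicates.

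At 48 h posttreatment 23 genes differed from 24 h at an adjusted p under 0.05, tested with the quasi-likelihood method of edgeR and adjusted after Benjamini and Hochberg. Of these, 21 were higher at 48 h, or 0.172% of the genes tested, and 2 were lower, or 0.0164%. The changes ran from 1.61-fold to 10.0-fold among the higher genes, with 17 of the 21 at 2-fold or more, and the lower genes were 2.92-fold and 2.89-fold below their 24 h levels. In RPKM, the 48 h libraries did not overlap with the 24 h libraries for any of the 23 genes. Over all genes tested, both 48 h libraries lay above the 24 h libraries for 16.0% and below them for 25%. The 23 genes were called on the same libraries, so their lack of overlap follows largely from the choice. The study applied stricter limits, an FDR of 0.001 together with a 2-fold difference, to curcumin against solvent and with a different algorithm. Under these limits edgeR called 0 genes in the time comparison. At an unadjusted p under 0.05 there were 1235 genes (10.1%), of which 652 were higher (5.35%) and 583 lower (4.78%). At an adjusted p under 0.1, the test of edgeR gave 45 higher (0.369%) and 20 lower genes (0.164%). On the same reads DESeq2 called 125 genes at an adjusted p under 0.05, with 83 higher and 42 lower, and these included all 23 genes called by edgeR.

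**Figure D1:**
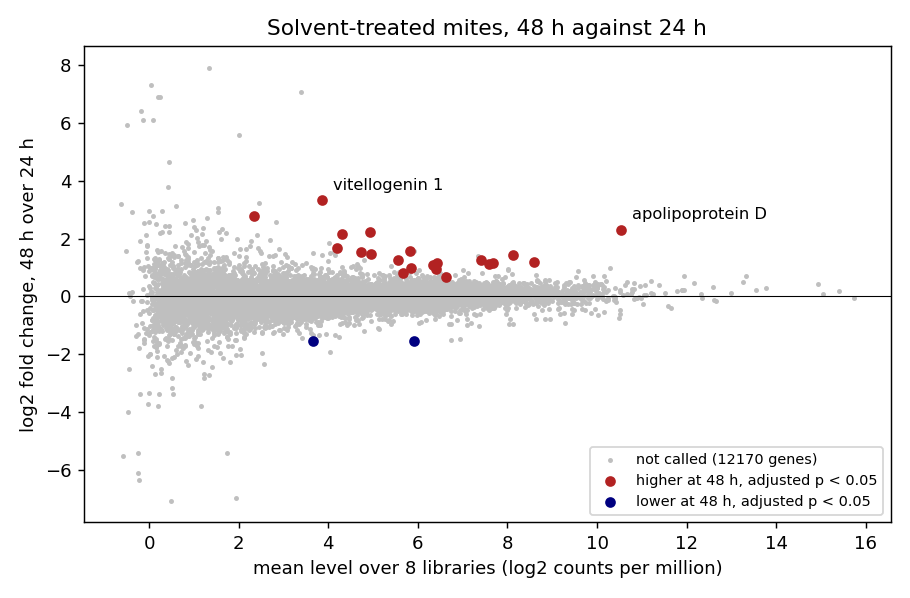
Log2 fold change of 48 h over 24 h in solvent-treated mites (vertical axis) against the mean level over the 8 libraries in log2 CPM, reads scaled for library size (horizontal axis), 1 point for each of the 12193 genes tested. The 21 genes called higher (red) include rare and abundant transcripts, and the 2 genes called lower (blue) both lie near -1.5.

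The clearest change was in the apolipoprotein D gene tetur09g04920, a gene model of 582 bp. It had an RPKM of 2886 and 2522 in the 48 h libraries, against 517 and 618 in the 24 h libraries. By RPKM it was thus the gene of rank 23 and 20 at 48 h, against rank 140 and 121 at 24 h. The mean was 2704 ± 257 RPKM at 48 h and 567 ± 71.0 RPKM at 24 h (SD, n = 2 each). On the log2 scale this was a change of 2.31 ± 0.17 (SE, adjusted p = 0.00224 by edgeR), that is, 4.95-fold higher at 48 h. The spread between replicates was small beside this difference, and the gene was called in 17 of 18 alternative settings. The exception was the fit without the first library at 24 h, in which its adjusted p was 0.0775 by edgeR with a log2 fold change of 2.19.

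Vitellogenin 1, tetur39g00730, had the largest fold among the called genes. This yolk protein gene, a model of 1298 bp, had an RPKM of 23.9 and 10.9 in the 48 h libraries, against 2.03 and 1.59 in the 24 h libraries. These values came from 360.2 and 170.7 estimated reads at 48 h, and from 33.3 and 26.6 reads at 24 h. Both 48 h libraries were higher, but they differed from each other by more than the 24 h libraries did, and the first one was the higher. The change was 3.32 ± 0.42 on the log2 scale (SE, adjusted p = 0.0194 by edgeR), or 10.0-fold. Without the first library at 48 h it was 2.59 and without the second 3.82, and both fits kept the call. The call was lost without the first library at 24 h (adjusted p = 0.187 by edgeR), without the second (0.239), and with only the 4 solvent libraries (0.0511). It was also lost in the 3 limma fits on RPKM, with adjusted p between 0.122 and 0.161 and a log2 fold change down to 2.62, so that 12 of 18 alternative settings kept it. By RPKM vitellogenin 1 had rank 3124 and 5774 in the 48 h libraries, against 10301 and 10826 at 24 h, so it was a much rarer transcript than apolipoprotein D. Its name is the one given by the study. Other yolk protein genes could not be picked out without a table of names, so the change of this 1 model does not stand for yolk transcripts as a whole.

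The other 21 called genes have no name in the sources used here, since the files give identifiers only and the study's tables name none of them. Of the 19 that were higher, tetur43g00450 had the smallest p, with an RPKM of 80.4 and 70.6 in the 48 h libraries against 26.1 and 26.0 in the 24 h libraries. It changed by 1.59 ± 0.14 on the log2 scale (SE, adjusted p = 0.00595 by edgeR). tetur07g03970 had an RPKM of 363 and 388 at 48 h against 139 and 146 at 24 h, a log2 change of 1.45 ± 0.14 (SE) with the same adjusted p of 0.00595 by edgeR. In both genes the replicates of each time point lay close together beside the gap between the time points. The gene model with the preceding identifier, of 806 bp, was also among the called genes, with an RPKM of 193 and 226 at 48 h against 82.4 and 96.5 at 24 h.

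The other 17 unnamed genes that were higher covered a wide range of levels, with a mean RPKM between 3.80 and 704 at 48 h, against means between 0.556 and 320 at 24 h. Their folds ran from 1.61 to 6.86, with a median log2 fold change of 1.19 beside -0.01 over all genes tested. A median above 0 follows from their choice as higher genes. Abundant transcripts were among them, as 5 of the 17 had a mean of 100 RPKM or more at 48 h. The most abundant of the 17, a model of 546 bp, had an RPKM of 738 and 670 at 48 h against 302 and 338 at 24 h. The largest fold belonged to a rare transcript, a model of 1977 bp with an RPKM of 4.41 and 3.19 at 48 h against 0.428 and 0.684 at 24 h. Next in fold were models of 1747 bp, with 13.8 and 17.1 RPKM at 48 h against 3.60 and 3.23 at 24 h, and of 1588 bp, with 16.3 and 14.7 RPKM at 48 h against 2.59 and 4.62 at 24 h. The shortest of the 17 was a model of 159 bp, close to the length limit, with 508 and 540 RPKM at 48 h against 300 and 267 at 24 h.

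Both genes that fell were unnamed as well. tetur04g06150, a gene model of 547 bp, had an RPKM of 7.50 and 6.57 in the 48 h libraries, against 23.1 and 19.4 in the 24 h libraries. It changed by -1.54 ± 0.21 on the log2 scale (SE, adjusted p = 0.0284 by edgeR). tetur36g00190, a gene model of 1248 bp, had an RPKM of 15.0 and 18.8 at 48 h, against 59.8 and 41.4 at 24 h. It changed by -1.53 ± 0.22 on the log2 scale (SE, adjusted p = 0.0396 by edgeR). In both genes each 48 h library lay below each 24 h library by more than either pair of replicates differed. These calls were kept in 8 and 6 of 18 alternative settings. The direction, which the gap between the libraries left little room to change, was kept in all of them. The rule for naming genes also calls for the lower genes next in p, and the 8 of these had log2 fold changes between -3.78 and -0.61 with adjusted p between 0.0508 and 0.0865 by edgeR. They did not pass. All 8 also had a negative log2 fold change in curcumin-treated mites, while 56.4% of all genes tested had the same sign in both treatments. The curcumin libraries entered the filter and the estimate of the spread, so the choice of the 8 is not fully independent of them.

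**Figure D2:**
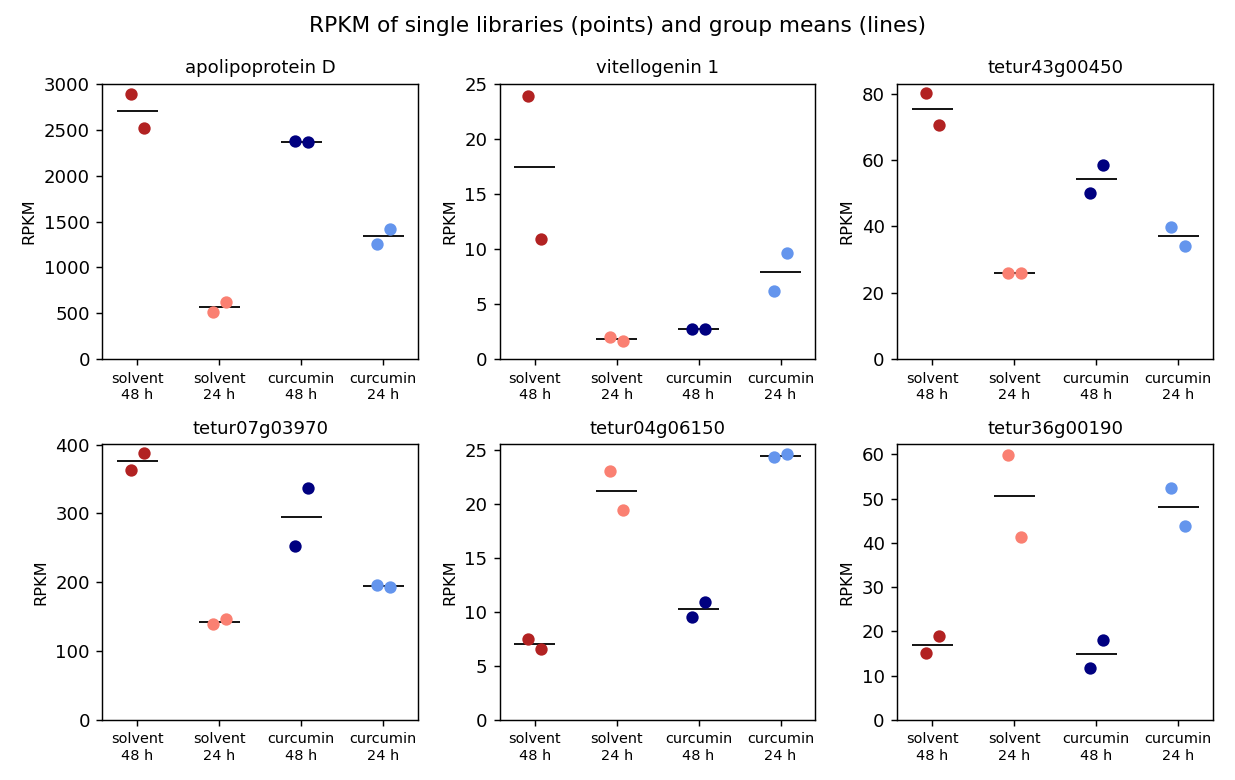
RPKM (vertical axis, from 0) of apolipoprotein D, vitellogenin 1, 2 unnamed genes that rose and the 2 that fell, with 1 point per library and a line at the mean of the 2 libraries of each group. In every panel the solvent libraries at 48 h and at 24 h are apart, and only for vitellogenin 1 do the curcumin libraries differ in the other direction.

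The number of called genes depended on single libraries. Without the first library at 48 h, the one that stood apart, 8 genes were called by edgeR, of which 7 were among the 23, and without the second 29 were called, with 17 among the 23. Without the first library at 24 h the same test called 0 genes, with 995 at an unadjusted p under 0.05, and without the second it called 2. In these fits a time point holds 1 library, which is assumed to vary like the others. Since the time points did not overlap in RPKM for any of the 23 genes, leaving out 1 library could hardly reverse a direction. Over the 4 fits and the 23 genes, the direction was kept each time, and the call was kept in 26 of 92 cases.

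The curcumin-treated mites give the same measure in other libraries. These entered the fold changes that chose the 23 genes only slightly, through the shared scaling. They also entered the filter and the estimate of the spread, so the choice is not fully independent of them. With only the 4 solvent libraries 10 genes were called, of which 7 were among the 23, and with 1 curcumin library left out between 10 and 19 genes were called. Their change at 48 h against 24 h had the same sign as in solvent for 20 of the 23 genes (87.0%), beside 56.4% of all 12193 genes tested. Of the 20 genes, 15 had an unadjusted p under 0.05 by edgeR in the curcumin-treated mites, beside 12.7% of all genes tested (6.22% higher and 6.45% lower). Vitellogenin 1 and the model of 159 bp changed in the opposite direction there, also with an unadjusted p under 0.05 (0.00435 and 0.0467 by edgeR). Only 3 of the 23 passed an adjusted p of 0.05 there, beside 0.156% of all genes (0.0492% higher and 0.107% lower), and these were tetur36g00190, which fell, and 2 unnamed genes that rose, of 1661 bp and 1002 bp. In RPKM, 16 of the 23 did not overlap in the direction seen in solvent, beside 18.2% of all genes tested with the 48 h libraries above and 27.3% with them below. Across all genes tested, the changes in solvent and in curcumin had a Pearson's r of 0.0989 and a Spearman's rho of 0.179, where genes are not independent replicates.

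For apolipoprotein D the curcumin libraries had an RPKM of 2373 and 2369 at 48 h, against 1253 and 1423 at 24 h. This is a 1.84-fold higher level at 48 h (log2 change 0.88 ± 0.17 SE, adjusted p = 0.0768 by edgeR). The 48 h levels were close to those of solvent-treated mites, while both 24 h levels were above those of solvent-treated mites. The difference between the time changes, curcumin minus solvent, was -1.43 on the log2 scale (standard error 0.23, adjusted p = 0.222 by edgeR, unadjusted p = 0.000144). tetur04g06150 and tetur36g00190 had log2 fold changes of -1.21 and -1.65 in curcumin-treated mites, and the difference from solvent was 0.33 ± 0.28 and -0.12 ± 0.31 (standard error).

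Vitellogenin 1 went the other way. In curcumin-treated mites it had an RPKM of 2.69 and 2.69 at 48 h, against 6.21 and 9.66 at 24 h, or -1.51 ± 0.41 on the log2 scale (SE, adjusted p = 0.183 by edgeR). The difference between the time changes was -4.84 (standard error 0.58), with an unadjusted p of 1.2e-05 and an adjusted p of 0.126 by edgeR. The other genes of opposite sign were the model of 159 bp, with 345 and 360 RPKM at 48 h against 425 and 441 RPKM at 24 h in curcumin-treated mites, and a model of 1634 bp, whose curcumin change of -0.08 ± 0.14 (standard error) was within its error. Over all genes tested, edgeR called 0 differences between the time changes at an adjusted p under 0.05, with 992 genes (8.14%) at an unadjusted p under 0.05, while DESeq2 called 55. For 22 of the 23 genes the change was smaller in curcumin-treated than in solvent-treated mites, and for all 21 higher genes the mean RPKM at 24 h was lower in solvent-treated than in curcumin-treated mites. Since the genes were chosen on the solvent libraries, these last counts are not independent of the choice.

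**Figure D3:**
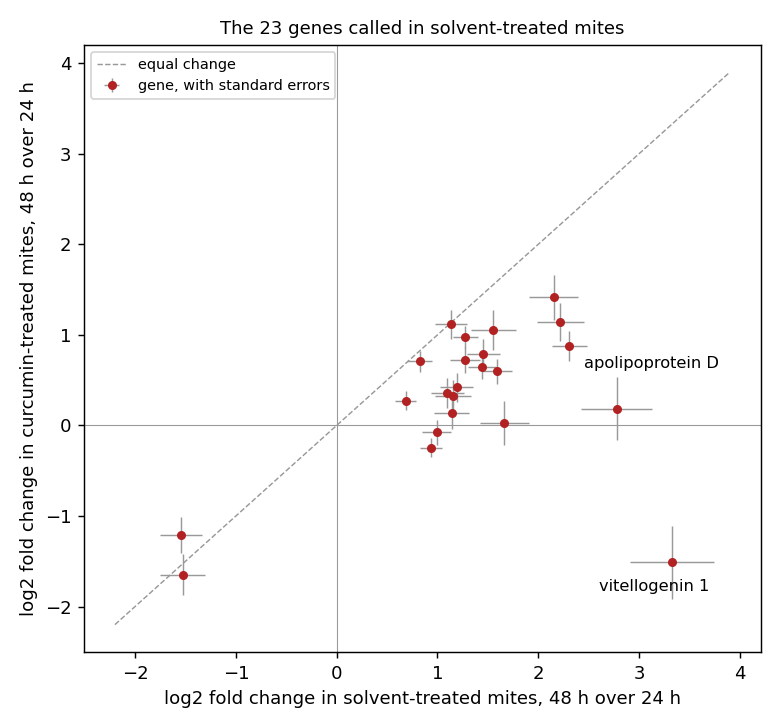
Log2 fold change of 48 h over 24 h in curcumin-treated mites (vertical axis) against that in solvent-treated mites (horizontal axis) for the 23 genes called in solvent-treated mites, with standard errors as bars and equal change as a dashed line. Most genes lie on the same side of 0 in both but below the line, and vitellogenin 1 lies at 3.32 in solvent and -1.51 in curcumin.

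The genes that the study names were then followed over the same day. The tables of the study name or place in a pathway 38 genes with models above the length limit, and 37 of these passed the filter on low counts. They had been listed for curcumin against solvent on libraries that include the 4 used here, so their time changes in solvent are not independent of that listing. Apolipoprotein D and vitellogenin 1 were called, both higher, and the other 35 were not, beside 0.189% called over all genes tested. The median log2 fold change of the 37 was -0.02, beside -0.01 over all genes tested, and 5 higher and 6 lower genes had an unadjusted p under 0.05 by edgeR, beside 5.35% and 4.78% of all genes.

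Among the genes of lipid and yolk metabolism, the other members were not called. Glycerol-3-phosphate dehydrogenase, which links glycolysis to the making of glycerolipids, had an RPKM of 16.3 and 3.64 at 48 h, against 4.52 and 2.87 at 24 h, so that 1 library set its mean at 48 h. The Der f 2 allergen gene had 12.3 and 11.0 RPKM at 48 h, against 17.7 and 15.3 at 24 h.

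For the digestive enzymes and their inhibitors, 0 of the 2 members were called, and both were abundant. Cathepsin B, a cysteine protease of lysosomes and of the mite gut, had an RPKM of 621 and 342 at 48 h, against 447 and 400 at 24 h. Cystatin, an inhibitor of such proteases, had 210 and 135 RPKM at 48 h, against 377 and 241 at 24 h. The log2 fold change of cystatin was -0.78 ± 0.35 (SE, adjusted p = 0.504 by edgeR), and the 48 h libraries lay below the 24 h libraries by less than the 24 h libraries differed from each other.

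In nerve signalling, 0 of the 4 genes were called. SIFa is a neuropeptide known in insects for its part in feeding and mating behaviour. Its precursor gene, a short model of 180 bp, had an RPKM of 20.4 and 11.3 at 48 h, against 3.03 and 6.19 at 24 h (log2 change 1.87 ± 0.80 SE, adjusted p = 0.487 by edgeR). The gene described as similar to gamma-aminobutyric acid had 13.8 and 33.1 RPKM at 48 h and 14.4 and 16.5 RPKM at 24 h, which overlap. The hyperpolarization-activated ion channel gene, of a family of channels that open as the membrane potential falls, had 24.4 and 16.0 RPKM at 48 h, against 22.6 and 14.7 at 24 h. The neuromedin-K receptor gene was not on the lists of the 4 solvent libraries, and its value there was taken as 0, as for every other RPKM or read value of 0 given here.

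In calcium and phospholipid signalling 0 of the 2 tested genes were called. Calmodulin, the calcium sensor of many enzymes, had 0.506 and 0 estimated reads in the 48 h libraries, against 46.0 and 12.7 in the 24 h libraries. Its adjusted p was 0.479 by edgeR, and the 24 h libraries differed widely from each other. The phospholipase C family member, of an enzyme family that releases inositol trisphosphate from the membrane, had an RPKM of 4.99 and 8.24 at 48 h, against 13.9 and 13.0 at 24 h (log2 change -1.0 ± 0.33 SE, adjusted p = 0.381 by edgeR). Phospholipase A2 did not pass the filter, with at most 1.61 reads in a solvent library.

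Of the 6 genes of kinases and GTPases, 0 were called. The Ser/Thr protein kinase, a short model of 185 bp, came nearest. It had an RPKM of 30.9 and 27.9 at 48 h against 51.8 and 72.4 at 24 h (log2 change -1.03 ± 0.23 SE, adjusted p = 0.168 by edgeR). Guanylate kinase, which converts GMP to GDP, had 78.6 and 63.9 RPKM at 48 h, against 58.1 and 35.5 at 24 h. The Ras GTPase gene, a model of 156 bp, had 19.0 and 3.19 reads at 48 h, against 3.81 and 0 at 24 h. The scaffold protein gene, at 146 bp the shortest model here, had 2.07 and 26.6 reads at 48 h and 0 in both 24 h libraries, and its adjusted p was 0.342 by edgeR. RabGAP/TBC and the RAB5-interacting protein overlapped between the time points.

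The genes for protein processing in the endoplasmic reticulum, where secreted and membrane proteins are folded, were measured next. Of these 8 genes 0 were called, and the log2 fold changes of 7 of them lay between -0.20 and 0.40. For tetur32g02000, which had the smallest p of the group, the RPKM was 111 and 102 at 48 h, against 101 and 66.5 at 24 h (log2 change 0.40 ± 0.18 SE, adjusted p = 0.493 by edgeR). Stress-associated endoplasmic reticulum protein 1, a short model of 195 bp, had 299 and 505 RPKM at 48 h, against 391 and 399 at 24 h. Calnexin, a chaperone of glycoproteins, differed between replicates and not between time points, with 147 and 0 reads in the 48 h libraries and 85.3 and 1.33 reads in the 24 h libraries.

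In transport, 0 of 4 genes were called, and 3 of the 4 had lower RPKM in both 48 h libraries than in both 24 h libraries, beside 25% of all genes tested. The ABC transporter gene, of a family of pumps that export foreign compounds, had 7.86 and 8.70 RPKM at 48 h, against 12.1 and 10.3 at 24 h. The monovalent cation/H+ antiporter subunit B gene had 6.70 and 8.69 RPKM at 48 h, against 21.8 and 14.1 at 24 h (log2 change -1.14 ± 0.37 SE, adjusted p = 0.366 by edgeR). Among the 7 genes of cell structure, nucleus and protein turnover, 0 were called, and their log2 fold changes lay between -0.80 for talin-1, which ties integrins to actin, and 0.40. The talin-1 model was short, at 180 bp, with 16.1 and 12.1 reads at 48 h, against 28.3 and 26.8 reads at 24 h. Beclin 1, a protein of autophagy, had an RPKM of 0 and 8.02 at 48 h, against 4.10 and 3.07 at 24 h.

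**Figure D4:**
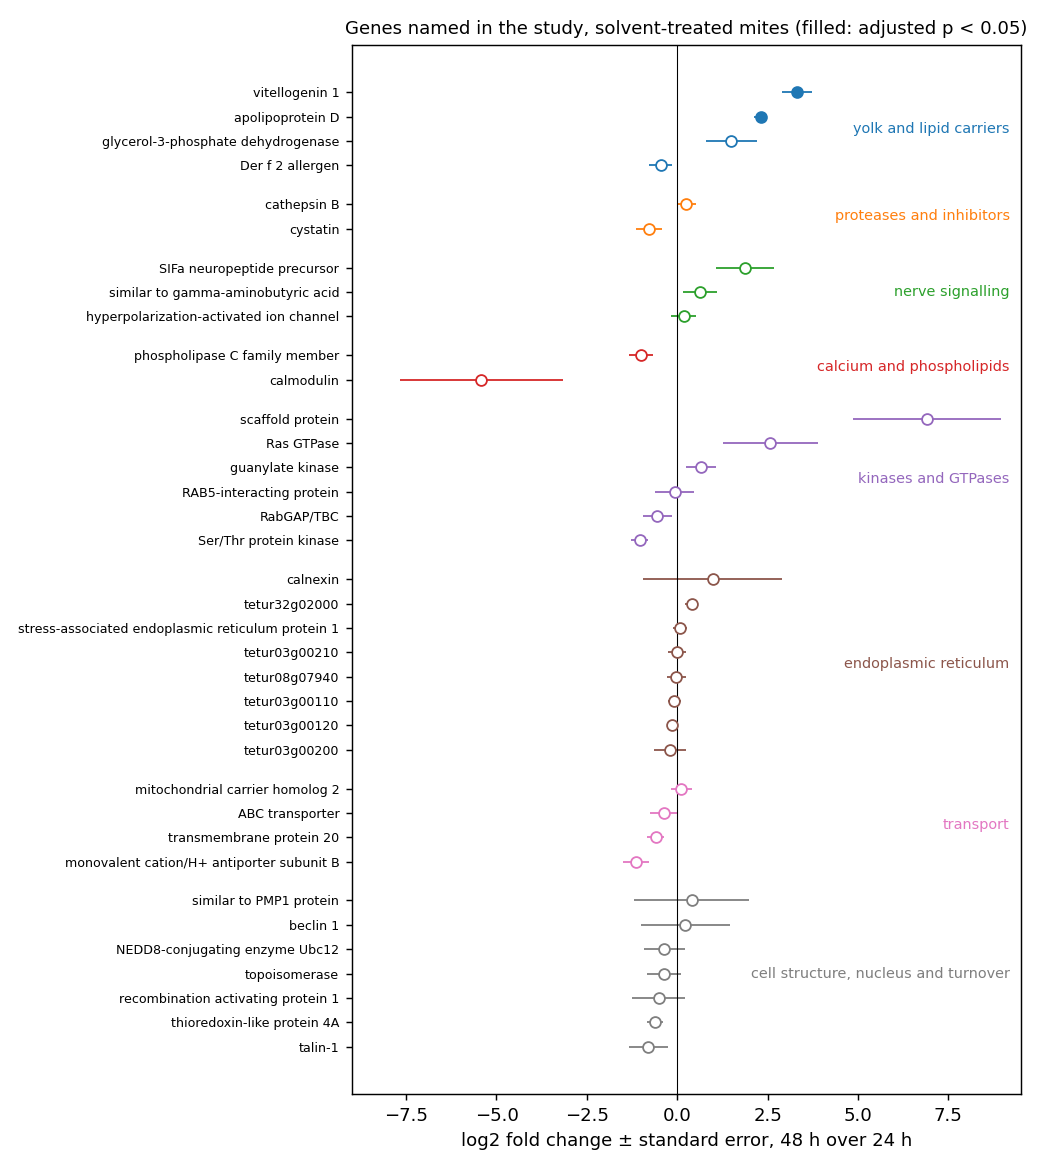
Log2 fold change of 48 h over 24 h in solvent-treated mites (horizontal axis, bars: standard error) for 36 of the genes that the study names or places in a pathway, by group. Only vitellogenin 1 and apolipoprotein D are filled, at 3.32 and 2.31, and the genes of the endoplasmic reticulum other than calnexin lie near 0. The neuromedin-K receptor, absent from the lists of all solvent libraries, is not drawn.

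Presence at only one time point was rare. Of the 15666 gene models above the length limit, 1 had 10 or more reads in both 48 h libraries and 0 in both 24 h libraries, and 0 had the reverse pattern. This unnamed model of 759 bp had 15.0 and 23.2 reads at 48 h (adjusted p = 0.0899 by edgeR). With 3 reads over both 24 h libraries put in place of 0, its level was 14.2-fold higher at 48 h. In curcumin-treated mites it had 0 and 0.622 reads at 48 h, against 4.11 and 9.67 reads at 24 h. The 3 reads allow for counting error at 24 h only. Counting error in the 48 h reads and the spread between replicates are not covered.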

How the data were processed

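After filtering for quality and adaptors, the authors placed the Ion Proton reads on the genome of the sister species T. urticae using T-Map 3.4.1. For each gene, the authors deposited an expected count, an unscaled estimate of its reads that need not be whole, and an RPKM value scaled for gene length and mapped reads. Which tool made the estimates, and which release of the gene models it used, was not given in the sources used here. Genes missing from a list were taken as 0.

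After rounding, the estimates were tested in R 4.3.3 by edgeR 4.0.16 (filterByExpr, scaling by TMM, a robust quasi-likelihood fit of 4 groups over 8 libraries, 4 residual degrees of freedom, common biological coefficient of variation 0.14). P-values were adjusted by Benjamini-Hochberg over 12193 gene models above the length limit. Standard errors were worked out from the F statistic. Alternatives were DESeq2 1.42.0, limma 3.58.1 on log2(RPKM + 1) and log2(RPKM + 0.1) with a minimum mean RPKM of 0.5 or none, and changes of scaling, filter, length limit, samples and replicate block. The tests were first tried on simulated data, in which 200 of 12193 genes were changed in the solvent libraries at 48 h. edgeR recovered 85 of 100 genes changed 4-fold and 52 of 100 changed 2-fold, and it also called 19 unchanged genes. DESeq2 recovered 84 and 51 and called 29 unchanged genes, and limma recovered 76 and 27 and called 8. Some of the genes called in the real data may thus be unchanged, and many 2-fold changes may be missed. Python 3.11.15, pandas 2.3.3, numpy 2.4.6 and matplotlib 3.10.9 served for the other values.

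The comparison, the gene lists and the tests were chosen with earlier results of these data known. The genes named are apolipoprotein D, vitellogenin 1 and the other genes the study names or places in a pathway, and, of the unnamed called genes, the 2 of smallest p that rose and the 2 that fell, with the lower genes next in p given as a range. By rule up to 12 per direction by p, 5 by fold and 4 per list of product names were to be named, but no table of names was used here, so the lists could not be applied and the other called genes are given by length. These were picked for mention with their values in view. The labels name no separate cultures beyond the replicate number, while the study's methods call the replicates biological. Between 8033325 and 8617973 estimated reads per library fell on genes, and the study reports more reads sequenced and mapped for each library.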

Additional observations from a re-analysis of the deposited data

Results flagged for a closer look

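For 9 of the 58 tested genes that were called or named by the study (15.5%), beside 6.6% of all 12193 genes tested, both solvent libraries at 48 h lay on one side of both 24 h libraries while the curcumin libraries lay on the other side. The differences below are the time change in curcumin minus that in solvent, on the log2 scale. They were tested in edgeR, and none passed an adjusted p of 0.05. The genes come from lists made on the same libraries, so the pattern is not independent of how they were chosen.

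Vitellogenin 1 had a difference of -4.84 (adjusted p = 0.126 by edgeR), and the unnamed model of 159 bp one of -1.18 (adjusted p = 0.126 by edgeR). Guanylate kinase had a difference of -5.47 (adjusted p = 0.177 by edgeR), with 5.10 and 0 RPKM at 48 h against 64.8 and 81.0 RPKM at 24 h in curcumin-treated mites. The SIFa neuropeptide precursor had a difference of -3.49 (adjusted p = 0.494 by edgeR). In the endoplasmic reticulum group, tetur32g02000 had a difference of -0.61 (adjusted p = 0.595 by edgeR).

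In the other direction, the monovalent cation/H+ antiporter subunit B gene had a difference of 2.37 (adjusted p = 0.321 by edgeR), talin-1 one of 2.16 (0.506), the phospholipase C family member one of 1.81 (0.381) and transmembrane protein 20 one of 0.82 (0.57).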

How the results depend on the processing

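The 21 higher and 2 lower genes at an adjusted p under 0.05 became 83 and 42 with DESeq2, 12 and 1 without the filter on low counts, and 1 and 0 with limma on log2(RPKM + 1) or on log2(RPKM + 0.1). They became 1 and 1 with limma and no filter on the mean RPKM, and 8 and 2 with only the 4 solvent libraries. With 1 of the 8 libraries left out, the higher genes numbered between 0 and 27 and the lower genes between 0 and 5. Leaving out the first curcumin library at 24 h gave 13 and 1, leaving out the second gave 10 and 0, and leaving out either one at 48 h gave 14 and 5. The 0 genes past the study's thresholds became 25 with DESeq2, 1 with scaling by library size only, and remained 0 otherwise, also with each library left out (lowest 0, highest 0). The 0 differences between the time changes became 55 with DESeq2 and between 0 and 2 with 1 library left out. The cause of these moves was not tested. Some of these fits held fewer libraries, and the number of genes tested also differed. It was 11811 with only the 4 solvent libraries, 12193 with DESeq2 as in the main test, and 15582 without the filter on low counts.

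With the replicate number as a block, 22 genes were higher and 3 lower, and 19 of these were among the 23. The 4 calls lost had adjusted p between 0.0507 and 0.0541 by edgeR, among them tetur36g00190 at 0.0507. The labels only number the replicates. The study's methods describe each replicate as an experiment of its own, without saying that a number marks the same experiment in all groups. The deviations of same-numbered libraries from their group means correlated with r = 0.166 for solvent at 48 h and 24 h, and between -0.0839 and 0.167 over the 6 pairs of groups, so whether the numbers pair the libraries is not known, and the block was kept as an alternative. Over 18 alternatives and 23 called genes, the direction was kept in all 414 cases and the call in 208. The time points did not overlap in RPKM for any of the 23, so the direction had little room to change. Of the 35 genes named by the study that were not called, 0 passed an adjusted p of 0.05 in any alternative. Scaling by library size only moved the share of higher genes to 82.4%, from 91.3%. With 2 libraries per group and this depth, a gene that was not called is not shown to be unchanged.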
